A study of Mus musculus with 1 sample.

Results

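Cytosolic ribosomal proteins are the proteins that, with ribosomal RNA, build the ribosome outside mitochondria, and their genes were taken from the expression table of 1 mouse fibroblast library by name. Rows whose symbol starts with Rpl or Rps followed by a digit, or is Rplp0, Rplp1, Rplp2 or Rpsa, were members. Symbols of the Rps6k kinases and of pseudogenes (containing -ps) were left out. The rule found 86 of the 23386 genes of the table. Of these, 84 were counted as ribosomal protein genes, 52 of the large and 32 of the small subunit, with the subunit read from the symbol. The other 2 carry a matching name only. Rps19bp1 encodes a protein that binds RPS19, and the row named Rps4y2 carries the accession of Rps4l, a transcribed pseudogene on chromosome 6. Both were kept as members but set outside the subunits. Of the 84 coding members, 77 are called main forms here, 46 of the large and 31 of the small subunit. The other 7 are the paralog forms whose symbols end in l, l1 or al.

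The library is RNA sequencing of total RNA from 1 expanded culture of pancreas fibroblasts. By its labels, the culture came from normal pancreas of mixed (C57BL/6 and BALB/c) background with the genotype tf1acre-;KrasWT;Tgfrb2flox/flox, so that the Tgfrb2 alleles are floxed and the Cre is marked as absent. The series also covers fibroblasts of pancreas tumours, which were not analysed here. The value column carries a CAF code, used in this field for cancer-associated fibroblasts, and this disagrees with the label. The library is therefore called the library labelled normal fibroblast. With 1 library there was no comparison between conditions, no replicate spread and no test. All 10 fibroblast markers checked had at least 10 reads, with a summed level of 12843 CPM (reads per 1000000 reads of the table). All 5 epithelial, 4 endothelial and 4 mesothelial markers also reached 10 reads, as did 4 of 6 acinar and 3 of 4 leukocyte markers. Of all protein-coding genes, 67.6% did. The lowest fibroblast marker, Fap, had 29 reads, below the 61 reads of Epcam, the lowest epithelial marker. The sums were 551 CPM for 4 mesothelial markers, 261 CPM for 6 acinar markers, 183 CPM for 4 endothelial markers, 31.4 CPM for 5 epithelial markers and 14.2 CPM for 4 leukocyte markers. Kdr alone had 181 CPM of the endothelial sum, and Pecam1, the lowest endothelial marker, had 13 reads. The lowest mesothelial marker, Msln, had 4760 reads (90.7 CPM). No marker was at 0, and the part of other cell types in the levels below was not tested. In a bulk library, fewer cells of a type and less RNA per cell cannot be told apart. The table held 52494688 reads, and every interval given is a 95% interval for counting error only.

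A ribosome has a large subunit, which joins amino acids in its peptidyl transferase centre, and a small subunit, which reads the mRNA in its decoding centre. Each ribosomal protein is present in about 1 copy per ribosome, except the stalk proteins of Rplp1 and Rplp2, which are present in more than 1. Their mRNAs are among the most abundant of growing cells and start with a 5′ terminal oligopyrimidine (TOP) tract, through which mTORC1 and LARP1 control their translation. Mammalian genomes also hold many processed pseudogenes of these mRNAs, and introns of their genes hold small nucleolar RNAs (snoRNAs) that guide the modification of ribosomal RNA.

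Of the 86 members, 83 had at least 10 reads, against 67.6% of all protein-coding genes. The 3 below were Rpl3l with 5 reads, Rpl10l with 2 reads and Rpl39l with 0 reads, which are all paralog forms. Levels are given below as RPKM, the reads per kilobase of exons and per 1000000 reads, with exact Poisson intervals. Protein-coding genes with at least 10 reads had a median of 7.49 RPKM, called the coding median below. Of the 86 members, 81 lay above it, against 34.0% of all protein-coding genes with a length. Of the 77 main forms, 29 were among the 500 highest protein-coding genes, a place that 2.46% of these genes hold. Among the 100 highest of the same 20300 genes were 5 main forms. The members took 420752 reads, or 0.802% of the reads, with an exact binomial (Clopper-Pearson) interval of 0.7991% to 0.8039%. These mRNAs are short: after division by length the 84 genes of the subunits took 3.12% of the signal of all protein-coding genes with a length.

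The main forms were unequal in level. Their median was 59.7 RPKM, their lowest value 6.09 RPKM and their highest 788 RPKM, a 129-fold range. With the median length of all transcripts of each gene, the range was 76.5-fold. The log2 levels had an SD of 1.36 across these 77 genes, which describes the spread between genes and is no replicate error. Within 2-fold of the median lay 37 main forms, while 7 lay over 4-fold above it and 3 over 4-fold below. The 5 members with the most reads held 36.5% of the reads of all members, and the 10 members with the most reads held 48.8%.

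**Figure D1:**
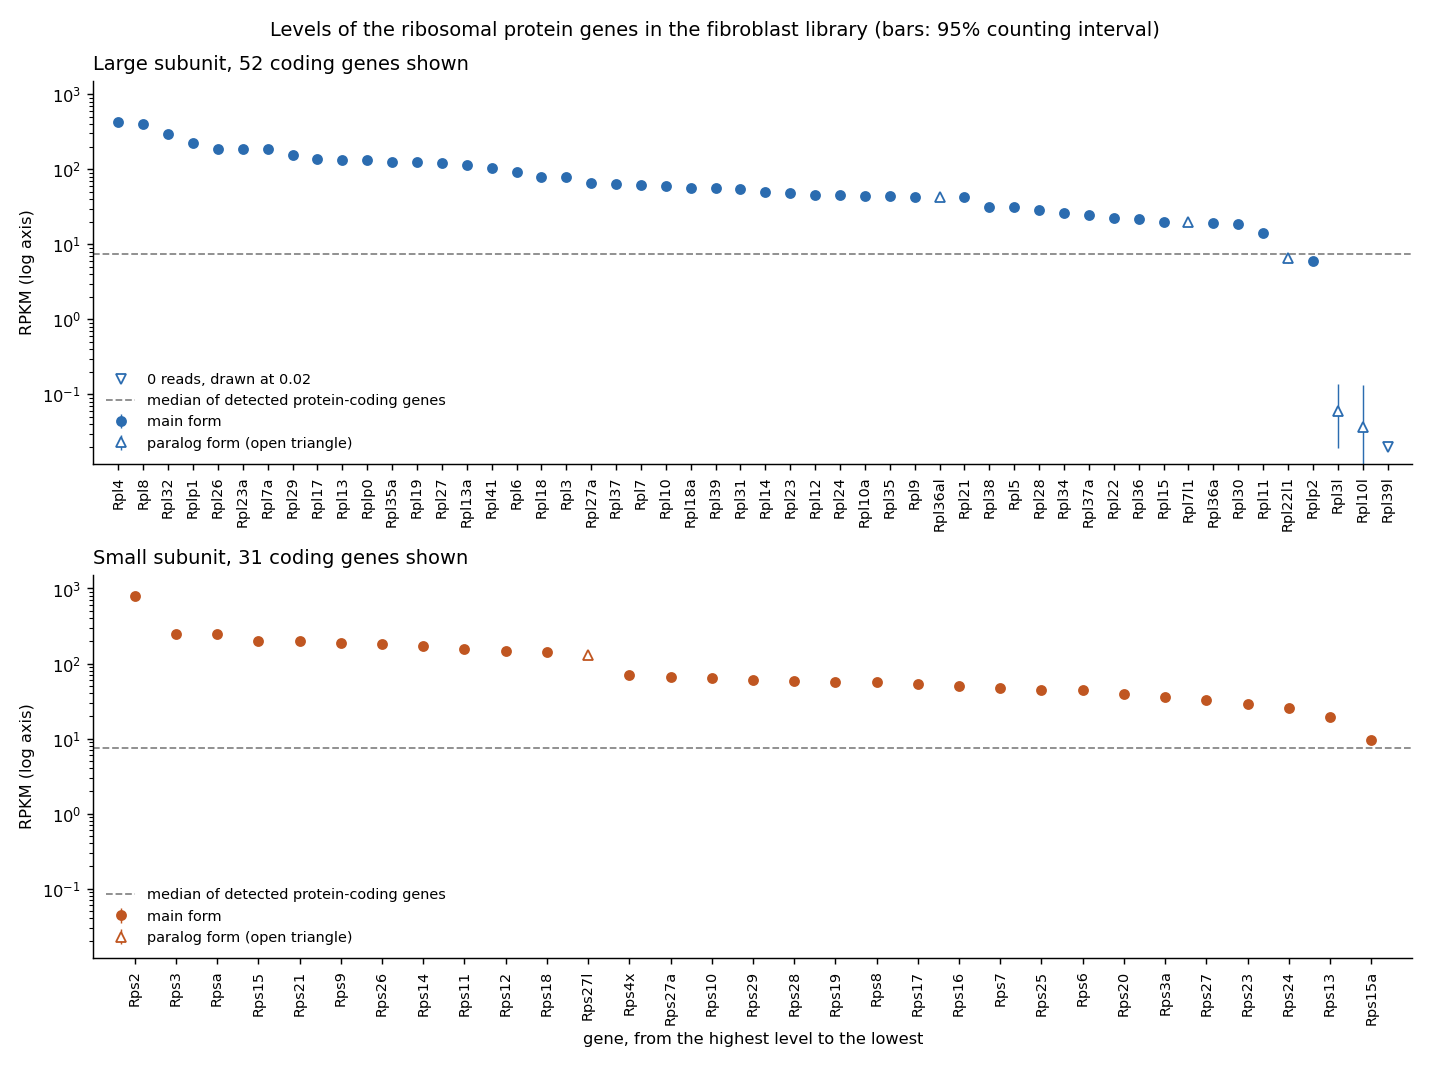
Level of 83 of the 84 coding members (1 is not shown), in RPKM on a log axis, for the large subunit (top) and the small subunit (bottom), with 95% counting intervals as bars. Filled circles are main forms and open triangles paralog forms; Rpl39l had 0 reads and is drawn at 0.02. All points except Rpl22l1, Rplp2, Rpl3l, Rpl10l and Rpl39l lie above the dashed line, the coding median of detected genes (7.49 RPKM).

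In the large subunit the 5 highest genes were Rpl4, Rpl8, Rpl32, Rplp1 and Rpl26. Rpl4, whose protein reaches into the wall of the tunnel through which the new peptide leaves, had 34883 reads and 432 RPKM (428 to 437). Rpl8, a protein next to the peptidyl transferase centre, had 398 RPKM (392 to 404). Rpl32 had 295 RPKM (289 to 302), above the stalk gene Rplp1 with 221 RPKM (215 to 226). Rpl26, at the rim of the tunnel exit, had 189 RPKM (183 to 194), and Rpl23a and Rpl7a followed with 185 RPKM each. The intervals of Rpl26, Rpl23a and Rpl7a overlap, so these 3 were not told apart by counting error.

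The 5 lowest main forms of the large subunit were Rplp2, Rpl11, Rpl30, Rpl36a and Rpl15. Rplp2, which forms the stalk with Rplp1, had 308 reads and 6.09 RPKM (5.43 to 6.81). It was the only one of the 77 main forms below the coding median. Rpl11 had 14.3 RPKM (13.2 to 15.5), Rpl30 18.6 RPKM (17.4 to 19.8) and Rpl36a 19.4 RPKM (17.8 to 21.2). Rpl15 had 2015 reads, which gives 19.1 to 20.9 RPKM. The intervals of Rpl30, Rpl36a and Rpl15 overlap.

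By place in the large subunit, the levels of partners differed. The stalk recruits translation factors to the ribosome. Its 4 genes had 221 RPKM for Rplp1, 133 RPKM for Rplp0, 45.3 RPKM for Rpl12 and 6.09 RPKM for Rplp2, a 36.2-fold range. With the median length of all transcripts of each gene they had 221, 233, 74.5 and 12.8 RPKM, in the same order. The proteins nearest the peptidyl transferase centre, Rpl8, Rpl3 and Rpl10, had 398, 78.6 and 59.7 RPKM. Along the exit tunnel, Rpl4, Rpl17 and Rpl39 had 432, 139 and 55.7 RPKM. At the rim of the exit, where the signal recognition particle and chaperones dock, 5 genes ranged between 44.3 RPKM for Rpl35 and 189 RPKM for Rpl26. Rpl5 and Rpl11 form a particle with 5S ribosomal RNA, which binds MDM2 when ribosome assembly fails. They had 31.8 RPKM (30.7 to 32.9) for Rpl5 and 14.3 RPKM for Rpl11.

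In the small subunit Rps2, Rps3, Rpsa and, at the same level, Rps15 and Rps21 were among the highest genes. Rps2 and Rps3 lie where the mRNA enters the subunit. Rps2 had 41263 reads and 788 RPKM (780 to 795), the highest level of all members, and Rps3 had 249 RPKM (246 to 252). Rpsa lies where the mRNA leaves it and had 245 RPKM (242 to 248). Rps26, Rps14 and Rps28, also at the exit site, had 181, 172 and 59.2 RPKM. Rps15, with a tail that reaches the decoding site, and Rps21 both had 197 RPKM, with intervals of 191 to 202 and 191 to 203. Rps23, a protein of the decoding centre, had 29.3 RPKM (27.8 to 30.9), 6.71-fold below Rps15.

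The 5 lowest genes of the small subunit were Rps15a, Rps13, Rps24, Rps23 and Rps27. Rps15a had 9.60 RPKM (9.24 to 9.98), Rps13 19.1 RPKM (17.6 to 20.7) and Rps24 25.6 RPKM (24.5 to 26.6). Rps27 had 32.5 RPKM (30.5 to 34.6). Rps27a, whose protein is made as a fusion to ubiquitin, had 66.9 RPKM (64.4 to 69.4), near the median of the main forms. Rps6, the substrate of the S6 kinases, had 44.6 RPKM (42.7 to 46.6), and Rps19, the gene most often mutated in human Diamond-Blackfan anaemia, had 57.4 RPKM (54.9 to 60.1).

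Single ranks depend on the length used. The length here is the union of exons of the transcripts whose accessions the row carries, and for Rps15a these reach 5179 bases. With the median length of all transcripts of each gene, 28 of the 77 main forms moved by over 1.5-fold. Rps15a then had 78.1 RPKM, Rps20 252 RPKM in place of 39.6 RPKM, and Rplp2 12.8 RPKM. The coding median was then 14.3 RPKM, and 75 of the 77 main forms lay above it. Of the 10 highest and of the 10 lowest main forms, 7 each were shared between both lengths, with Rps2 the highest under both and Rps13 (10.7 RPKM) the lowest under the second.

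The subunits had nearly the same number of reads, 209313 on the 52 large-subunit genes and 210133 on the 32 small-subunit genes. The median level was 52.4 RPKM for the large and 62.8 RPKM for the small subunit. On the scale of log2(RPKM + 0.5), the difference of the medians was −0.26 (large minus small). Among main forms alone the medians were 58.2 RPKM for the large and 61.0 RPKM for the small subunit, and the difference was −0.07. No test was made, since genes are not replicates. The value moved to −1.93 when only members with at most 50% of their sequence copied elsewhere in the genome were kept, 26 of the large and 16 of the small subunit. Their median log2 levels were 5.22 for the large and 7.15 for the small subunit. In that group the small subunit keeps Rps3 and Rpsa, with 6.78% and 45.3% copied, while Rps2, with 84.0% copied, leaves it.

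The 7 coding paralog forms and Rps4y2 were set beside their main forms. Paralog forms of ribosomal proteins are known to replace the main form in certain tissues, and Rpl3l in striated muscle, Rpl10l and Rpl39l in the male germ line are the classic cases in mouse. These 3 had the fewest reads of all members. Rpl3l had 5 reads and 0.0596 RPKM (0.0194 to 0.139), against 78.6 RPKM (76.5 to 80.7) for Rpl3. Rpl10l had 2 reads, against 2503 reads and 59.7 RPKM for Rpl10. Rpl39l had 0 reads, which allows up to 3, so it was at least 784-fold lower per kilobase than Rpl39 with 55.7 RPKM. Rpl3l lies 5898 bases from Rps2 on chromosome 17, so that the highest member and one with 5 reads lie close together (GRCm38).

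In the next 3 pairs the paralog was below its main form, with ratios whose intervals cover counting error only. Rpl7l1, named for its likeness to Rpl7, had 19.8 RPKM (19.0 to 20.5), against 62.7 RPKM (60.8 to 64.8) for Rpl7, a ratio of 0.315 (0.300 to 0.331). Rpl22l1 had 6.49 RPKM (5.59 to 7.48), against 22.1 RPKM (21.2 to 23.0) for Rpl22, a ratio of 0.294 (0.252 to 0.341). Both ratios depend on the length and on the copies: the log2 ratio of Rpl7l1 to Rpl7 lay between −2.69 and −0.50 over the alternatives, and that of Rpl22l1 to Rpl22 between −3.66 and −0.48. The pseudogene row Rps4y2 had 14.5 RPKM (13.4 to 15.6), against 71.1 RPKM (68.8 to 73.5) for Rps4x, a ratio of 0.204 (0.188 to 0.221). Its log2 ratio to Rps4x was −2.30 and lay between −4.08 and −1.55 over the alternatives.

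In the remaining pairs the paralog was higher. Rps27l, known in human and mouse cells as a target of p53, had 3362 reads and 128 RPKM (124 to 133), against 979 reads and 32.5 RPKM (30.5 to 34.6) for Rps27. The ratio was 3.95 (3.68 to 4.25). Rpl36al, an autosomal gene, had 1181 reads and 42.8 RPKM (40.4 to 45.3), against 493 reads and 19.4 RPKM (17.8 to 21.2) for X-linked Rpl36a. The ratio was 2.20 (1.98 to 2.45). On the log2 scale it turned to −0.73, in place of 1.14, when reads were divided by the share of sequence with no copy elsewhere, since 51.2% of Rpl36al but 86.6% of Rpl36a is copied. For Rps27l the copied share was 28.2%, against 55.4% for Rps27. After the same division Rps27l was still higher, by 1.29 on the log2 scale in place of 1.98.

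**Figure D2:**
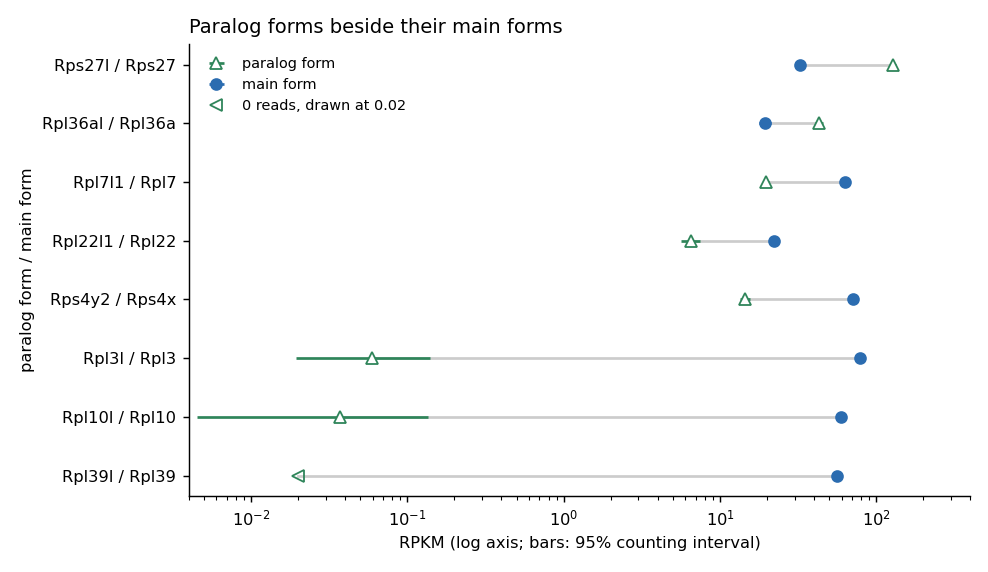
Level of each paralog form (open triangle) and of its main form (filled circle), in RPKM on a log axis, with 95% counting intervals as bars. Rps27l and Rpl36al lie to the right of their main forms, the other 6 to the left, and Rpl39l had 0 reads and is drawn at 0.02.

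The pair with the highest ratio is shown as coding sequences without the stop codon, since they show how far reads of one can be told from reads of the other. Rps27l and Rps27 have 252 coding bases each and differ at 60 of them (76.2% identity), given in capitals. The sequences are GENCODE M21 on GRCm38, of genes at chr9:66944624-66949522 (plus strand) and chr3:90212667-90213648 (minus strand), 5′ to 3′.
Rps27l: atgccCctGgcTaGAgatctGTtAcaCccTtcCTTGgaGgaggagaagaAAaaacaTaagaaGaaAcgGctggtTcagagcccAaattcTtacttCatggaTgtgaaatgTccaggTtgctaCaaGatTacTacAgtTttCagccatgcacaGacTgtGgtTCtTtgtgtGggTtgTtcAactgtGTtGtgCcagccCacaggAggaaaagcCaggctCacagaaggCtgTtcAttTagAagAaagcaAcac
Rps27: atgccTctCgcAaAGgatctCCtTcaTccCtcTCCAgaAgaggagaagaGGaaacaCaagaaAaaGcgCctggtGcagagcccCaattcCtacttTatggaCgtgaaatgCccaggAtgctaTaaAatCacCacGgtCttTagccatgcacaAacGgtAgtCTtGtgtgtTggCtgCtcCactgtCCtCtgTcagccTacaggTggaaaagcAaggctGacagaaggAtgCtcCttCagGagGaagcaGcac
The differing bases run through both sequences. The longest stretch without a difference is 11 bases, and no 35-base window of the Rps27l transcripts is in those of Rps27.

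Rpl36al and Rpl36a have 318 coding bases each and an identity of 87.7%. Over all 8 pairs, Rpl39l and Rps4y2 shared 4 windows each with their main form and the others none.

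Of the main forms, 4 are X-linked, a place where 1 allele is silenced in female cells. Rps4x had 71.1 RPKM, Rpl10 59.7 RPKM, Rpl39 55.7 RPKM and Rpl36a 19.4 RPKM. Their median was 57.7 RPKM, against 61.0 RPKM for the 73 autosomal main forms. The X-linked values lie within the range of the autosomal ones, which is wide (6.09 to 788 RPKM). The median share of sequence copied elsewhere was 82.1% for the X-linked and 51.1% for the autosomal main forms. Its part in these levels was not tested. Paralogs of these 4 lie on autosomes, with Rpl10l and Rpl36al on chromosome 12, Rpl39l on chromosome 16 and Rps4y2 on chromosome 6.

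Much of the members' sequence is repeated in the genome, which bears on how reads can be assigned. Each 35-base window of the members' transcripts was searched in the transcripts of all other GENCODE M21 genes, on both strands, and repeats were counted alike with retrocopies. Of the 86 members, 84 shared at least 1 window with a gene elsewhere, and 42 shared over 50% of their windows. The median share among main forms was 52.0%. The genes that shared windows were 4159, of which 1500 are annotated as processed pseudogenes and 1942 have a row in the table. Rpl7a shared windows with 152 pseudogenes, Rpl29 with 114, Rpl21 with 103 and Rps2 with 89. Rps3 had 6.78% of its windows copied and Rpl8 9.55%, so that 2 of the higher members have few copies.

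Across the 77 main forms the copied share and the log2 level had a Pearson r of 0.07 and a Spearman rho of 0.11. These values describe 77 genes of 1 library and have no p. Main forms with under 25% copied had a median of 47.6 RPKM (8 genes), those with 25% to 75% 59.2 RPKM (47 genes) and those with over 75% 74.8 RPKM (22 genes). The most copied ranged between 19.1 and 788 RPKM, which takes in all 3 medians. The log2 level had an r of −0.26 with transcript length, a term of the level itself, and 0.28 with GC content.

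**Figure D3:**
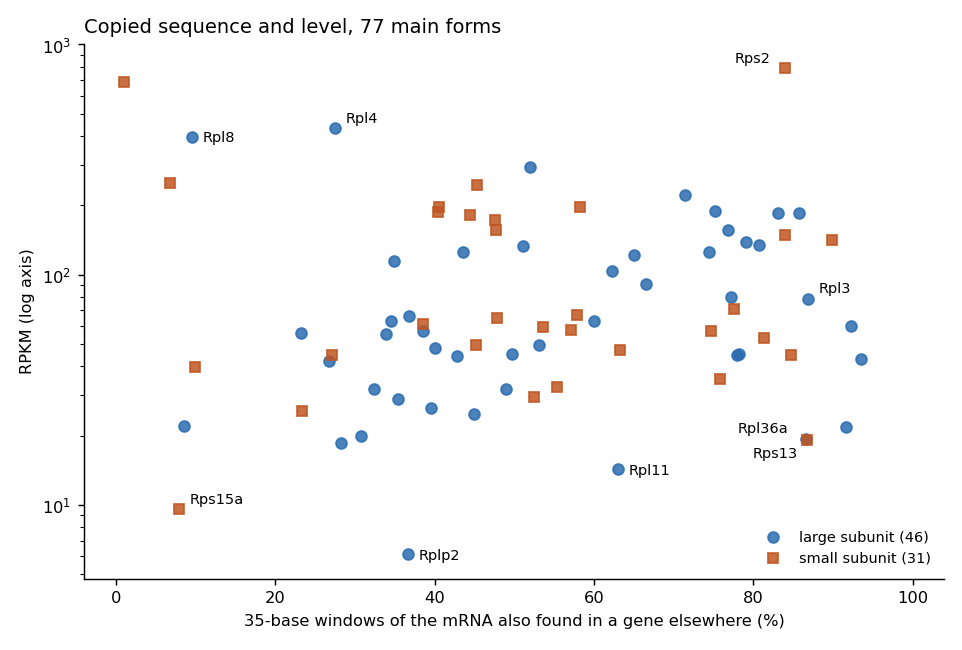
Share of each main form's 35-base windows that are also found in a gene elsewhere (percent, x axis) and its level in RPKM (log y axis), for 46 large-subunit genes (circles) and 31 small-subunit genes (squares). High levels are found at both ends of the x axis: Rpl8 (398 RPKM) has 9.55% copied and Rps2 (788 RPKM) 84.0%.

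The table has 6 rows of named pseudogene copies that the rule left out, with 4225 reads in all, against 420752 on the members. Rplp2-ps1 had 2091 reads, against 308 for Rplp2, so that 87.2% of the reads of this pair lay on the copy. Rpl34-ps1 had 932 reads, against 946 for Rpl34. The other 4 lay below their main form, with 593 reads for Rps15a-ps6 and 286 for Rps15a-ps4 against 2610 for Rps15a, 243 for Rpl31-ps12 against 3034 for Rpl31, and 80 for Rps19-ps3 against 1909 for Rps19. The sources used here do not give how reads that match several loci were counted, and whether reads of Rplp2 and of its copy were mixed was not tested. Of the windows of Rplp2, 36.6% are copied in some gene elsewhere, but no gene found to share them is named Rplp2-ps1. The other named copies share 127 to 250 windows with their main form. Whether Rplp2-ps1 stands under another name in GENCODE was not checked.

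Small nucleolar RNAs inside these genes drew almost as many reads as the members themselves. The table has 33 rows of snoRNAs whose coordinates lie in an intron of a member, 21 of the C/D box and 12 of the H/ACA box family, in 23 members. The C/D family guides 2′-O-methylation and the H/ACA family pseudouridylation of ribosomal RNA. They held 371412 reads, or 0.708% of the reads, which is 0.883 of the members' own 420752. On the host's strand lie 31 of them; Snora78 lies on the other strand of Rps2, and no strand was found for Snord43. The sources used here do not give whether the counting used strand.

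In reads, 17 of the 33 exceeded their host gene, and per kilobase 31 did, since they are 45 to 157 bases long. Snora65 in Rpl12 had 94851 reads, against 2955 on Rpl12, a ratio of 32.1 (30.9 to 33.3). Of its 35-base windows, 66.7% also lie in 3 other genes, and without it the snoRNA reads were 0.657 of the members' reads. Snora52 in Rplp2 had 4507 reads, against 308 on Rplp2, a ratio of 14.6 (13.0 to 16.5). Rplp2, the main form with the lowest level at the length used here, thus holds a snoRNA whose reads exceeded its own. With the median transcript length Rps13 was lower, with 10.7 RPKM against 12.8 RPKM for Rplp2. Whether reads of Rplp2 went to its named copy, which had 2091 reads, was not tested.

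Rpl13a holds 4 snoRNAs of the C/D family. Snord35a had 29021 reads, Snord32a 18728, Snord33 16645 and Snord34 5863, against 6298 reads on Rpl13a. These 4 lie in introns of the same gene, and 3 of them exceeded it in reads. Rps3 holds Snord15b with 41345 reads and Snord15a with 14380, against 24966 reads on Rps3. At the other end, Snord14a in Rps13 had 1 read, against 590 on Rps13, and Snora62 in Rpsa had 1824 reads, against 24952 on Rpsa. With Snora78 (604 reads, against 41263 on Rps2), Snord14a was 1 of the 2 below its host also per kilobase. The 23 host genes, which are all main forms, had a median of 78.6 RPKM, against 54.1 RPKM for the 54 main forms that host none of these rows.

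**Figure D4:**
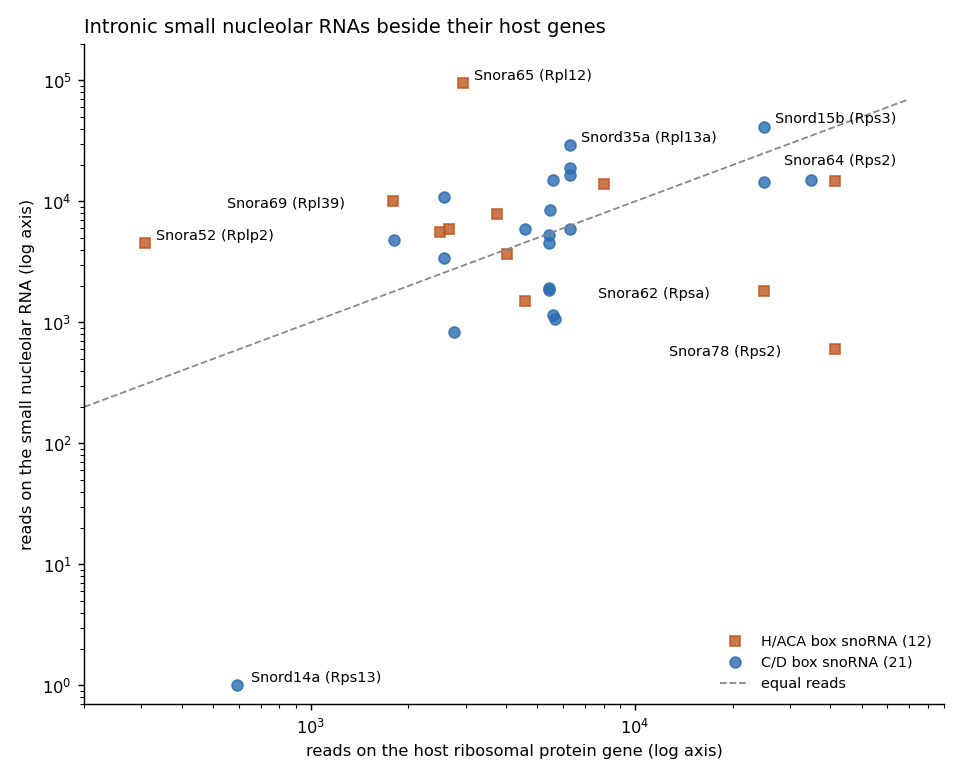
Reads on each of 33 intronic snoRNAs (y axis) and on its host ribosomal protein gene (x axis), both on log axes and not divided by length. Squares are H/ACA box and circles C/D box snoRNAs, and 17 points lie above the dashed line of equal reads, with Snora65 (94851 reads) the highest and Snord14a (1 read) the lowest.

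The 3 snoRNAs shown are the leading one and, for the C/D family, the leading ones of Rps3 and Rpl13a. They are GENCODE M21 transcripts on GRCm38, at chr2:32963291-32963420 (plus strand), chr7:99479563-99479707 and chr7:45126346-45126435 (both minus strand). Capitals mark ACA near the 3′ end in the first, and the C box TGATG and the D box CTGA in the others.
Snora65: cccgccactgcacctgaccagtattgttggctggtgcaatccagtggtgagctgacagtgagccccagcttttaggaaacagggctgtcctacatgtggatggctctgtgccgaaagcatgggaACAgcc
Snord15b: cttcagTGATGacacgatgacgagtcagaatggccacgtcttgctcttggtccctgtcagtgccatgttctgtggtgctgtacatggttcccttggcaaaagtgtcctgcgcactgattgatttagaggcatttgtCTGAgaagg
Snord35a: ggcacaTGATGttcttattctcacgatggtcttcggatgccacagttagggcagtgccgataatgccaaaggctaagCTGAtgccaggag
TGATG within the first 20 bases together with CTGA within the last 25 was found in all 20 C/D snoRNAs of members with a GENCODE transcript. It was found in 87.8% of 98 GENCODE snoRNAs named Snord, in 24.0% of all 1507 GENCODE snoRNAs and, on the other strand, in 0.133%. ACA within the last 20 bases was found in all 12 H/ACA snoRNAs of members, in 95.2% of 42 named Snora, in 53.7% of all 1507 and, on the other strand, in 30.7%.

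The TOP tract was looked for at the annotated starts of the members. RefSeq starts on GRCm38.p6 were matched for 65 of the 86 members, among them 57 of the 77 main forms with 67 starts. A run of at least 8 bases of C or T (transcribed strand) that covers the start base was found at 25.4% of the 67 starts of main forms and at 0 of the 9 starts of paralog forms. At starts of mitochondrial ribosomal protein genes the share was 1.37%, and it was 3.55% at the 19838 starts of all protein-coding genes measured. Within 50 bases on either side of the start, such a run was found at 80.6% of starts of main forms, 55.6% of paralog forms, 35.6% of mitochondrial ribosomal proteins and 34.9% of all protein-coding genes. On the other strand, which shows as A or G on the transcribed one, the shares were 23.9%, 22.2%, 24.7% and 36.6%, in the same order.

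Annotated starts can lie some bases away from the cap site, so the letters are shown for the 5 highest main forms with a run at a start within 50 bases of the GENCODE transcript start, and for Rps27 and its paralog Rps27l. Each line gives 30 bases before the annotated start and 30 bases from it on, 5′ to 3′, with the run that covers the start base in capitals. The windows are chr7:3704011-3704070, chr2:26910777-26910836, chr17:33955636-33955695, chr7:109519165-109519224, chr4:86857338-86857397, chr3:90213619-90213678 and chr9:66946056-66946115, with Rps18, Rps6 and Rps27 on the minus strand. The nearest GENCODE start was 48 bases away for Rps9 and Rpl27a, 45 for Rps6, 43 for Rpl7a, 12 for Rps18, 3 for Rps27 and 0 for Rps27l.
Rps9: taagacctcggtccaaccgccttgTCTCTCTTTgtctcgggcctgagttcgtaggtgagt
Rpl7a: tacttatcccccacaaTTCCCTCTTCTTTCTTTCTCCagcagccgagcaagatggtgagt
Rps18: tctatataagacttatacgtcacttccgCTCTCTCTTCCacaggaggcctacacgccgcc
Rpl27a: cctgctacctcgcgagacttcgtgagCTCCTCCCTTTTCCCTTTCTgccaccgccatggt
Rps6: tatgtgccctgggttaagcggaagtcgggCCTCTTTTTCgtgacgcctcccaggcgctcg
Rps27: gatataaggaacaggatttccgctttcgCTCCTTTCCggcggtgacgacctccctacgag
Rps27l: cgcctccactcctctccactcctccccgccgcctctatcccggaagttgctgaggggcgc
The runs were 21 bases in Rpl7a, 20 in Rpl27a, 11 in Rps18, 10 in Rps6 and 9 in both Rps9 and Rps27. The starts shown for Rps9 and Rpl7a lie inside the spans of these genes, which begin at chr7:3703954 and chr2:26910685. The start base of Rps27l is not in such a run, although stretches of C and T lie before it in the window. This start lies inside the span of Rps27l, which begins at chr9:66944624, while the start shown for Rps27 is the 5′ end of its span (chr3:90213648). The starts of this pair are thus not alike in place. Rps27l was the member of this pair with more reads (128 RPKM, against 32.5 RPKM for Rps27). Main forms with a run at a start had a median of 44.3 RPKM (17 genes), against 59.4 RPKM for those with a start and no run covering it (40 genes). At the start nearest to a GENCODE start, 14 of these 57 main forms had the run. Such a run lay within 50 bases of 80.6% of the starts of main forms, so the group of 40 is not known to lack a tract. The 20 main forms with no start in the table used had 72.7 RPKM. These medians are descriptions of mRNA levels, while a TOP tract is known for its part in translation, which was not measured.

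Genes that work with the cytosolic ribosome were set beside the members. Among ribosomal proteins under other names, Gnb2l1 (now Rack1), a scaffold on the head of the small subunit, had 830 RPKM (823 to 836), above Rps2. Fau, which encodes a ribosomal protein fused to a ubiquitin-like protein, had 91.2 RPKM (88.4 to 94.0).

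The main forms stood 3.93-fold above the 76 mitochondrial ribosomal protein genes, with medians of 59.7 RPKM for the main forms and 15.2 RPKM for the mitochondrial ones. Of the 76, 59 lay above the coding median. Mrpl33 had 105 RPKM, Mrpl52 54.3 RPKM and Mrpl54 54.1 RPKM, while Mrpl47 had 1.66 RPKM. These proteins build the ribosome that translates the mitochondrial genome.

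Translation factors and other mRNAs known for a TOP tract came nearest to the main forms, with a median of 48.6 RPKM. All 17 lay above the coding median. Eef2, the translocation factor, had 845 RPKM, Eef1a1, which brings aminoacyl-tRNA, 714 RPKM, and Nap1l1, a histone chaperone, 146 RPKM. Npm1 is also in the assembly list below. Naca, of the nascent polypeptide-associated complex, was lowest with 12.3 RPKM. Eef2, Eef1a1 and Gnb2l1 thus had levels near the 788 RPKM of Rps2.

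Factors that build and control ribosomes were lower. The 30 ribosome assembly genes had a median of 18.7 RPKM, and 27 lay above the coding median. Ncl, which encodes nucleolin, had 66.1 RPKM, Eif6, which keeps immature large subunits from joining, 63.5 RPKM, Nop56, a C/D snoRNP core protein, 60.5 RPKM, and Nmd3, the export adaptor of the large subunit, 2.99 RPKM. The 15 genes of RNA polymerase I and its factors had a median of 13.6 RPKM, with 35.3 RPKM for Rrn3, 31.2 RPKM for Ubtf, 29.8 RPKM for Polr1d and 2.98 RPKM for Polr1e. Rrn3 and Ubtf bring the polymerase to the ribosomal DNA, and Polr1d and Polr1e are subunits. Of the 15, 9 lay above the coding median. The 45S precursor row Rn45s had 322146 reads, 0.614% of the reads.

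The 14 genes of mTORC1 and of the control of these mRNAs had a median of 13.4 RPKM, and 11 lay above the coding median. Rheb, the activator of mTORC1, had 59.8 RPKM, and Eif4ebp2, an inhibitor of the cap-binding protein eIF4E, 57.7 RPKM. Myc, a transcription factor that raises ribosome production, had 47.0 RPKM, and Rps6kb2, a kinase of Rps6, 3.54 RPKM. Of the 4 genes of the nucleolar stress response, Trp53 had 57.3 RPKM, its inhibitor Mdm2 43.1 RPKM, its target Cdkn1a 38.5 RPKM and Mdm4 19.9 RPKM. Rps27l, the paralog of the p53 response, had 128 RPKM. A difference of these levels between conditions was not tested.

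**Figure D5:**
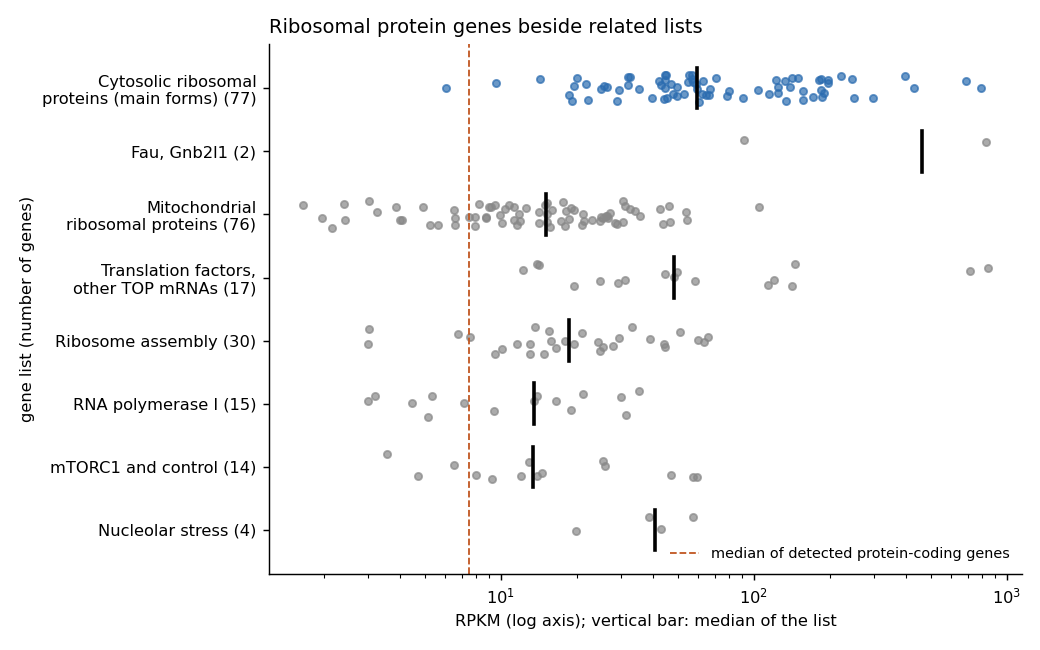
Level of each gene in RPKM (log x axis) for the 77 main forms of cytosolic ribosomal proteins (top) and 7 related lists, with a bar at each median. The medians are 59.7 RPKM for the main forms, 48.6 RPKM for translation factors and other TOP mRNAs and 15.2 RPKM for mitochondrial ribosomal proteins; the dashed line is the coding median, 7.49 RPKM.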

How the data were processed

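The members and gene lists were chosen with earlier results of these data known. The authors deposited 1 normalised signal per row of RefSeq transcripts for 24214 rows; the submitters' processing notes name DESeq and mm10 and state no role for either. Aligner, counting method and strand setting are not stated in these sources. All 20976 values above 0 were whole multiples of 1.18 within 0.006, so the deposited signal was read as counts divided by a size factor of 0.850, and 52494688 whole reads were recovered. The design had assumed whole reads or deposited values per length, and no count model was run, since 1 library allows no test. The search for the step and the window search were tested on simulated data.

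Rows that repeat a symbol or differ by a copy suffix were summed, which left 23386 genes, 20559 of them protein-coding by accession; 98.7% of these had a length. Levels are RPKM on the exon union of the GENCODE M21 transcripts that carry the row's accessions. A log2 level is log2(RPKM + 0.5). A gene with at least 10 reads counted as detected, a single read equals 0.0190 CPM, and where 0 reads were counted up to 3 (0.0571 CPM) are allowed. Reads are not independent molecules, and intervals cover counting error only. Starts and snoRNA coordinates are from RefSeq (GRCm38.p6).

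The text names the paralog pairs, the 5 highest and lowest main forms of each subunit per kilobase, members under 10 reads, and the 3 highest and the lowest gene of each related list. Other members are named by role or after their values were seen. Some values are not reported here. Alternatives were other totals, lengths, detection limits, pseudocounts and windows of 25 or 50 bases. The tools were numba 0.67.0, Biopython 1.88, scipy 1.17.1, pandas 2.3.3, numpy 2.4.6 and matplotlib 3.10.9, under Python 3.11.15.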

Additional observations from a re-analysis of the deposited data

How the results depend on the processing

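No paired analysis was possible because there was 1 library, and no replicate could be left out. The number of members with at least 10 reads stayed at 83 at a limit of 50 reads and was 85 at 1 read. The share of reads on the members was 0.872% of the reads on protein-coding rows, against 0.802%. A share with further genes added is not reported here. The difference of the median log2 levels (large minus small subunit), −0.26, stayed negative in every alternative run. It was −0.14 without division by length, −0.18 with the longest and with the median transcript length, −0.17 with members of at least 10 reads, −0.07 without the paralog forms, −0.24 with a pseudocount of 5 and −1.93 with members copied to at most 50%. Among alternatives added after the data were seen, it was −0.34 with all exons as length and −0.20 with Rps19bp1 and Rps4y2 in the small subunit. The number of paralog forms above their main form was 1 in place of 2 after division by the uncopied share. Rpl36al over Rpl36a was then −0.73 on the log2 scale, since 51.2% of Rpl36al but 86.6% of Rpl36a is copied. Which of its values is nearer the true ratio was not tested. The median copied share of main forms was 56.4% with windows of 25 bases and 48.5% with 50. Without summing rows of a name, the number detected, the share, the subunit difference and the paralog count were unchanged; this was not run for the copied share. Depth bears most on Rpl3l, Rpl10l and Rpl39l, with 5, 2 and 0 reads.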
